A study of Mus musculus with 4 samples.

Results

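The genes described here are 7 genes of the mouse opioid system: the precursors *Penk* (proenkephalin), *Pdyn* (prodynorphin) and *Pnoc* (prepronociceptin), and the receptors *Oprm1* (mu), *Oprk1* (kappa), *Oprd1* (delta) and *Oprl1* (the nociceptin receptor). They were picked by symbol among the 31053 genes of the deposited count tables. *Penk* stands at their head because its counts had been seen to be higher under DOCA-salt in an earlier look at the same libraries, so its treatment difference is described here without a test. The counts come from nuclei of the hypothalamic arcuate nucleus (ARC), taken as tissue punches, and each nucleus was sequenced in droplets (snRNAseq) from the 3′ end of its polyadenylated RNA. All mice were wildtype C57BL/6J males, 10 weeks old at collection. One group carried a subcutaneous pellet of deoxycorticosterone acetate (DOCA, a mineralocorticoid) and had a saline drink for 3 weeks (DOCA-salt), a treatment that raises blood pressure and retains sodium, and the other group (Sham) had sham surgery and drank water. Each library held nuclei pooled from more than a single mouse, and there were 2 libraries per group: DOCA-salt 1, DOCA-salt 2, Sham 1 and Sham 2.

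Opioid peptides are cut from large precursor proteins inside secretory vesicles and are released together with fast transmitters. Enkephalins act mainly on the delta and mu receptors, dynorphins on the kappa receptor, and nociceptin on its own receptor, and all these receptors couple to inhibitory G proteins that open potassium channels and close calcium channels. In the ARC, dynorphin is best known from the neurons that also make kisspeptin and neurokinin B (encoded by *Tac2*), where it restrains the pulses that drive reproductive hormone release, and beta-endorphin, the other classical opioid peptide, comes from the *Pomc* precursor of a separate set of neurons. Enkephalin is abundant in the striatum, where it marks one class of projection neurons.

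The 3 precursor genes differ in how often they encode an opioid core, and these stretches are shown because they say which peptides a transcript count of each gene stands for. They were read from the coding sequences of the GENCODE transcripts on GRCm38. Capitals mark the codons of the core (Met-enkephalin, Leu-enkephalin or the start of nociceptin), lower case the codons on either side, which mostly encode the basic residues where the precursor is cut, and the number is the codon at which the core starts.
Penk Met-enkephalin, codon 100: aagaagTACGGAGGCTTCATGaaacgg
Penk Met-enkephalin, codon 107: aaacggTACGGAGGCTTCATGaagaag
Penk Met-enkephalin, codon 136: aagaggTATGGCGGCTTCATGaagaag
Penk Met-enkephalin, codon 187: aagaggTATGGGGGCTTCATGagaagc
Penk Met-enkephalin, codon 211: aagcgcTACGGGGGCTTCATGagaagg
Penk Met-enkephalin, codon 262: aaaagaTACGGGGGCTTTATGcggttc
Penk Leu-enkephalin, codon 231: aagaggTATGGGGGCTTCCTGaagcgc
Pdyn Leu-enkephalin, codon 166: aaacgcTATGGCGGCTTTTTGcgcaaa
Pdyn Leu-enkephalin, codon 202: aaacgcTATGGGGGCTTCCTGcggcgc
Pdyn Leu-enkephalin, codon 221: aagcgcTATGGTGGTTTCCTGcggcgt
Pnoc nociceptin, codon 141: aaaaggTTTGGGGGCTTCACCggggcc
The 268 codons of *Penk* thus held 6 copies of the Met-enkephalin core and 1 of the Leu-enkephalin core. At codons 187 and 262 the Met-enkephalin core is followed by Arg-Ser and Arg-Phe, not by a pair of basic residues. The 248 codons of *Pdyn* held 3 copies of the Leu-enkephalin core at the start of its dynorphin and neoendorphin peptides, and the 212 codons of *Pnoc* held 1 nociceptin core.

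In the same annotation *Penk* lies on chromosome 4 (4133531 to 4138819, minus strand), *Pdyn* on chromosome 2 (129686565 to 129699844, minus strand) and *Pnoc* on chromosome 14 (65400673 to 65425472, minus strand). Of the receptors, *Oprm1* lies on chromosome 10 (6758506 to 7038198, plus strand), *Oprk1* on chromosome 1 (5588466 to 5606131, plus strand), *Oprd1* on chromosome 4 (132110726 to 132144486, minus strand) and *Oprl1* on chromosome 2 (181715016 to 181720985, plus strand). *Penk* is overlapped by A830012C17Rik and *Oprm1* by Gm10945 and Ipcef1, all on the opposite strand, and no member shares its strand with another gene in its span.

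The 4 libraries differed in ways that touch these genes. The files held between 2805 and 19754 barcodes per library and between 45126915 and 79437196 unique molecular identifiers (UMIs, each 1 captured transcript). The filters on nuclei kept 37442185 of 45126915 UMIs in DOCA-salt 1 and 69382757 of 79437196 in DOCA-salt 2. In Sham 1 they kept 21255137 of 53257230 and in Sham 2 39528518 of 59293582. The loss was thus larger in both Sham libraries than in both DOCA-salt libraries, and largest in Sham 1. After the filters, 1377 to 12423 nuclei per library were gated as neurons by neuronal marker genes, at a median of 3072, 2947, 9232 and 4528 UMIs (here and below in the order DOCA-salt 1, DOCA-salt 2, Sham 1, Sham 2). Neurons were then placed in classes by marker genes that include none of the members, and levels are UMIs scaled to counts per 1000000 UMIs of the same nuclei (CPM), with exact Poisson intervals at 95%. Intervals cover counting error only. Striatal-type neurons, gated on *Ppp1r1b*, *Adora2a*, *Rgs9* and related genes, numbered 228 in DOCA-salt 1 and 5, 0 and 2 in the other libraries. Neurons of the lateral hypothalamus, with *Hcrt* (orexin) or *Pmch* (melanin-concentrating hormone), numbered 234 and 462 in DOCA-salt 2 and at most 4 in any other library. No *Agrp* neuron, a defining type of the ARC, was found in DOCA-salt 2, against 427, 39 and 183 elsewhere, and *Agrp* stood there at 1.65 CPM of all neurons. Between 5 and 49 cell barcodes were shared by any pair of libraries, at most 0.565% of the smaller one.

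Counts of 6 of the 7 genes were higher in neurons than in oligodendrocytes, the myelin-forming glia that serve here as a comparison class. RNA that floats free in a suspension adds UMIs to nuclei that do not make a gene, so the oligodendrocyte level is given beside the neuronal one. It does not measure the free RNA of neurons. *Pnoc* in glutamatergic neurons outside the peptide classes lay below it (−1.03 on the log2 scale, lower in 4 of 4 libraries). *Penk* was at 153.8, 74.4, 106 and 58.7 CPM in neurons and at 86.9, 35.2, 78.0 and 36.6 CPM in oligodendrocytes. It was higher in neurons within every library. In both cell types DOCA-salt 1 and then Sham 1 were the highest, and DOCA-salt 2 was above Sham 2 in neurons and below it in oligodendrocytes. The difference was 0.59 ± 0.11 on the log2 scale (± SE, 4 libraries, edgeR quasi-likelihood test with library as a block, adjusted p = 0.000225). *Pdyn* was higher in neurons by 0.68 ± 0.13 (adjusted p = 0.000251) and *Pnoc* by 0.46 ± 0.13 (adjusted p = 0.00885). Among the receptors, *Oprk1* was higher by 1.26 ± 0.16 (adjusted p = 1.29e-06), *Oprl1* by 1.11 ± 0.11 (adjusted p = 4.79e-08) and *Oprm1* by 1.08 ± 0.41 (adjusted p = 0.0380). Each of these 6 was higher in 4 of 4 libraries, where 22.1% of all 14754 genes tested were called higher in neurons. *Oprd1*, at 1 or 0 UMIs in the oligodendrocytes of each library, was higher in neurons of 1 library and was not called (0.62 ± 0.91, adjusted p = 0.623). This comparison was chosen after the data were seen. With stricter marker gates *Penk* differed by 0.14 and *Pnoc* by 0.21, neither past the threshold. With looser gates they differed by 0.90 and 0.68. A neuronal marker rate of 0.65 to 0.8 times the library mean can bar a glial nucleus from the oligodendrocytes as reported, but not with the stricter gates. In this respect the stricter gates do not give a purer oligodendrocyte class. *Pdyn*, *Oprk1* and *Oprl1* passed under every alternative run. The calls for *Pnoc* and *Oprm1* were also lost by DESeq2 (0.44 and 1.05) and without DOCA-salt 2 (0.44 and 0.86), that for *Oprm1* without Sham 2 (0.85), and those for *Penk*, *Pnoc* and *Oprm1* with no library block (0.64, 0.38 and 1.03).

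**Figure D1:**
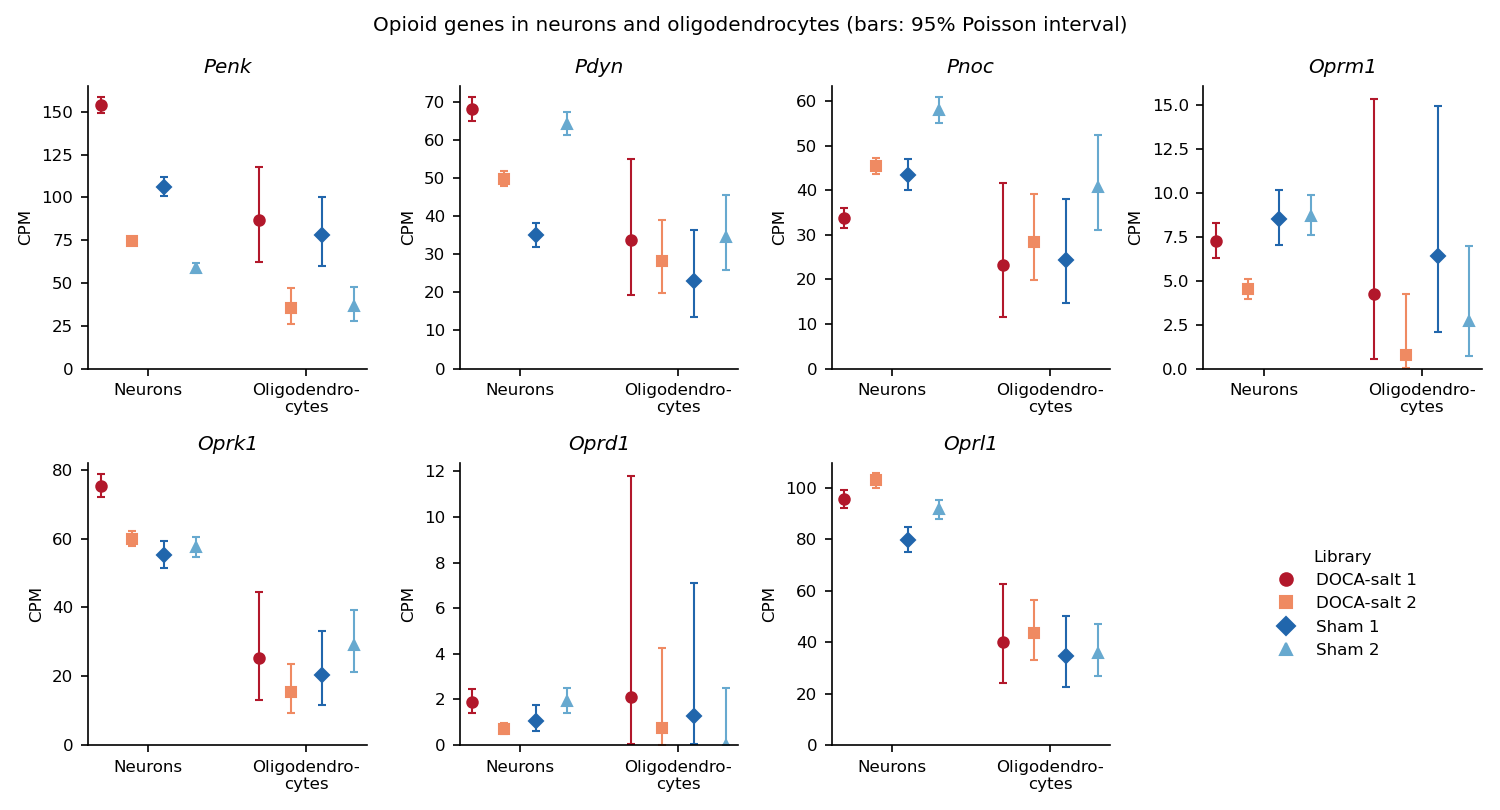
Level of each opioid gene (CPM, linear axis from 0) in neurons and in oligodendrocytes, 1 symbol per library with its 95% Poisson interval. For *Penk* the 4 oligodendrocyte values run from 35.2 to 86.9 CPM and are highest in the same 2 libraries as the neuronal ones, whereas *Oprk1* and *Oprl1* stand clear of the oligodendrocyte level in all 4 libraries.

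The share of nuclei with at least 1 UMI depends on sequencing depth. *Penk* was found in 21.5%, 14.8%, 42.6% and 15.6% of neurons and in 7.66%, 4.19%, 32.5% and 7.54% of oligodendrocytes, whose median depth was 1150, 989, 5979 and 1861 UMIs. Sham 1 had by far the highest share and the deepest nuclei. After each nucleus was thinned to 1000 UMIs (3 to 1034 shallower neurons per library left out), the shares in neurons were 9.11%, 5.80%, 9.17% and 4.96%, and the groups overlapped. In thinned oligodendrocytes, of which 105, 459, 0 and 77 were too shallow, they were 2.31%, 3.36%, 11.4% and 3.41%. In Sham 1 the neuronal share was thus no higher than the oligodendrocyte share, which rests on 114 nuclei and is given without an interval. By UMIs *Penk* was higher in its neurons (106 CPM) than in its oligodendrocytes (78.0 CPM). Thinned shares of *Oprl1* in neurons were 9.25%, 9.70%, 8.08% and 8.66% against 2.50% to 3.80% in oligodendrocytes, and the 2 ranges did not touch. *Oprd1* was found in 0.780%, 0.282%, 1.09% and 1.09% of neurons before thinning and in 0 to 0.877% of oligodendrocytes. With 52, 35, 15 and 50 *Oprd1* UMIs in all neurons of a library, its levels lack the precision to rank classes.

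The higher *Penk* under DOCA-salt was not present in both pools. Over all nuclei *Penk* was at 169, 71.9, 101 and 57.9 CPM, and in neurons at the values above. In both sets DOCA-salt 1 was the highest library and DOCA-salt 2 lay below Sham 1, so the groups overlapped. The log2 fold change of DOCA-salt over Sham was 0.54 over all nuclei and 0.42 in neurons. In neurons it was −0.14 without DOCA-salt 1, 0.82 without DOCA-salt 2, 0.93 without Sham 1 and 0.02 without Sham 2. The sign turned with the removal of DOCA-salt 1 alone.

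A large part of the *Penk* UMIs of DOCA-salt 1 lay in few nuclei with striatal markers. The 228 striatal-type neurons, 2.21% of its nuclei, held 1388 *Penk* UMIs, 21.9% of all in that library, at 954 CPM (95% interval 904 to 1005). *Penk* was found in 75.9% of them. Without them, neurons of DOCA-salt 1 were at 109 CPM, next to 74.4, 106 and 58.8 CPM in the others, and the log2 fold change in neurons was 0.11. A further 1271 *Penk* UMIs (20.1%) lay in the 1980 nuclei of DOCA-salt 1 that passed neither the neuronal nor a glial gate. These unassigned nuclei had a *Penk* level of 425 CPM, next to 58.0, 96.7 and 55.5 CPM in those of the other libraries. The 12 markers of the striatal list, summed, stood at 2830 CPM in these nuclei of DOCA-salt 1 and at 307, 468 and 310 CPM elsewhere. This list adds *Meis2*, *Isl1*, *Foxp1* and *Tac1* to the genes counted in the striatal gate. Of the 1980 nuclei, the 593 with at least 3 striatal marker UMIs held 1129 of the 1271 *Penk* UMIs at 678 CPM, and the rest were at 107 CPM. Among neurons of DOCA-salt 1, the 2967 with at least 3 such UMIs held 3743 of 4254 *Penk* UMIs at 211 CPM, and the rest stood at 51.7 CPM, below the 79.0, 123 and 62.1 CPM of neurons with fewer in the other libraries. Neurons with at least 3 were at 66.8, 100 and 55.9 CPM there, and deeper nuclei reach 3 UMIs more readily. Neurons with at least 3 made up 44.5%, 19.6%, 61.3% and 33.4% of all neurons, although Sham 1 had no striatal-type neuron. Reaching 3 UMIs of the list thus does not mark a striatal-type nucleus. In DOCA-salt 1 the 2967 include the 228 striatal-type neurons with their 1388 *Penk* UMIs. With striatal-type and unassigned nuclei both left out, all other nuclei were at 111, 72.5, 101 and 58.1 CPM. DOCA-salt 1 then stood next to Sham 1, and the groups still overlapped. Their part in the difference over all nuclei was not tested beyond these values.

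**Figure D2:**
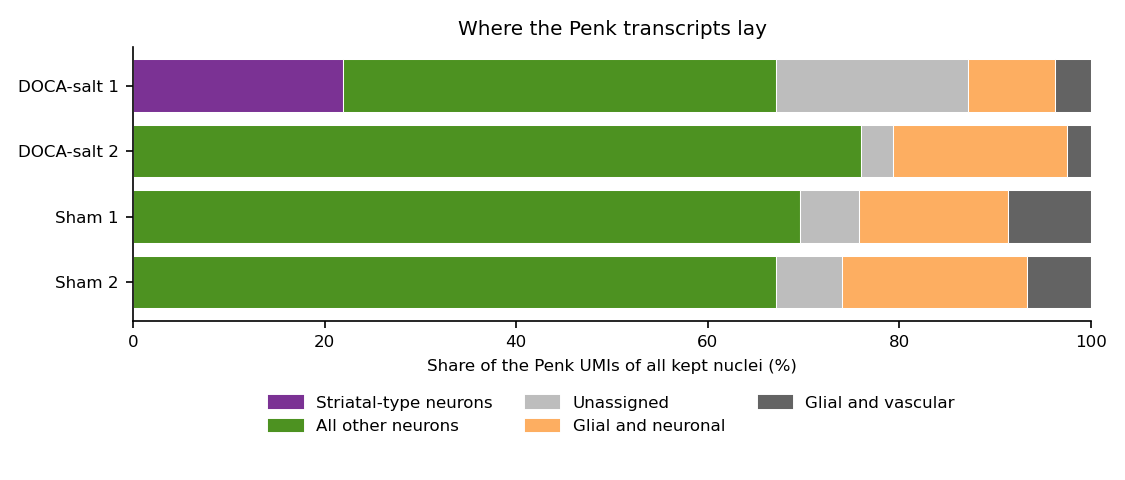
Where the *Penk* UMIs of each library lay, as a percentage of the *Penk* UMIs of all its kept nuclei (bars sum to 100). In DOCA-salt 1, 21.9% lay in striatal-type neurons and 20.1% in unassigned nuclei, whereas in the other 3 libraries striatal-type neurons held at most 0.0200% and unassigned nuclei 3.41% to 6.82%.

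Nuclei with much *Penk* were rare in every library. Among neurons thinned to 1500 UMIs, 47 of 5489 in DOCA-salt 1 kept at least 4 *Penk* UMIs, against 21 of 10450, 4 of 1361 and 9 of 3814. These shares were 0.856% (exact binomial 95% interval 0.630 to 1.14), 0.201% (0.124 to 0.307), 0.294% (0.0801 to 0.751) and 0.236% (0.108 to 0.447), so that the intervals of the last 3 overlapped. In oligodendrocytes 0 of 84, 0 of 217, 0 of 114 and 1 of 327 nuclei did, and in astrocytes 0 of 133, 201, 137 and 188. The share of 0.306% in oligodendrocytes of Sham 2 was above that of its neurons. With so few oligodendrocytes, the shares over all neurons could not be told from theirs. The upper bound for 0 of 84 was 4.30%. In DOCA-salt 1, 37 of the 47 were striatal-type neurons. They made up 17.3% of its 214 thinned striatal-type neurons, a share above that bound. In the other libraries 16 of 21, 3 of 4 and 6 of 9 were GABAergic neurons that passed no class gate.

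Across classes, the libraries that made *Penk* look higher or lower changed from class to class. Of the 10 sets of nuclei in which the treatments could be fitted, *Tac2* neurons were the only one where both DOCA-salt libraries were above both Sham libraries, and in that class 20.1% of the 9794 genes tested showed this order. *Penk* there was at 85.8 CPM (67 UMIs in 166 nuclei) and 91.7 CPM (139 UMIs in 261 nuclei) in DOCA-salt 1 and 2, and at 54.2 CPM (18 UMIs in 25 nuclei) and 18.6 CPM (16 UMIs in 93 nuclei) in Sham 1 and 2. The intervals of DOCA-salt 1 (66.5 to 109) and Sham 1 (32.1 to 85.7) overlapped, and Sham 2 (10.6 to 30.2) was the library that stood apart. The log2 fold change was 1.44. It was 0.67 without Sham 2 and 2.23 without Sham 1.

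This order in *Tac2* neurons depended on which nuclei were kept. With the likely doublets removed, DOCA-salt 1 stood at 35.8 CPM, below Sham 1 at 54.2 CPM, and the log2 fold change was 0.88. Without the upper limits on genes and UMIs per nucleus, Sham 1 had 49 *Tac2* neurons in place of 25, *Penk* was at 108, 87.1, 108 and 35.1 CPM and the log2 fold change was 0.39. In both cases the groups overlapped. The nuclei of this gate were also not alike between libraries. Their *Gad1* was at 463 CPM in DOCA-salt 2 against 127, 271 and 207 CPM, their *Slc17a6* at 114 CPM against 337, 268 and 374 CPM, and *Tacr3*, the neurokinin B receptor of kisspeptin neurons, at 8.57 CPM against 147, 18.1 and 32.5 CPM. *Kiss1* itself had 0 CPM in 3 libraries and 1.16 CPM in Sham 2. The part of these differences in the *Penk* values was not tested.

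**Figure D3:**
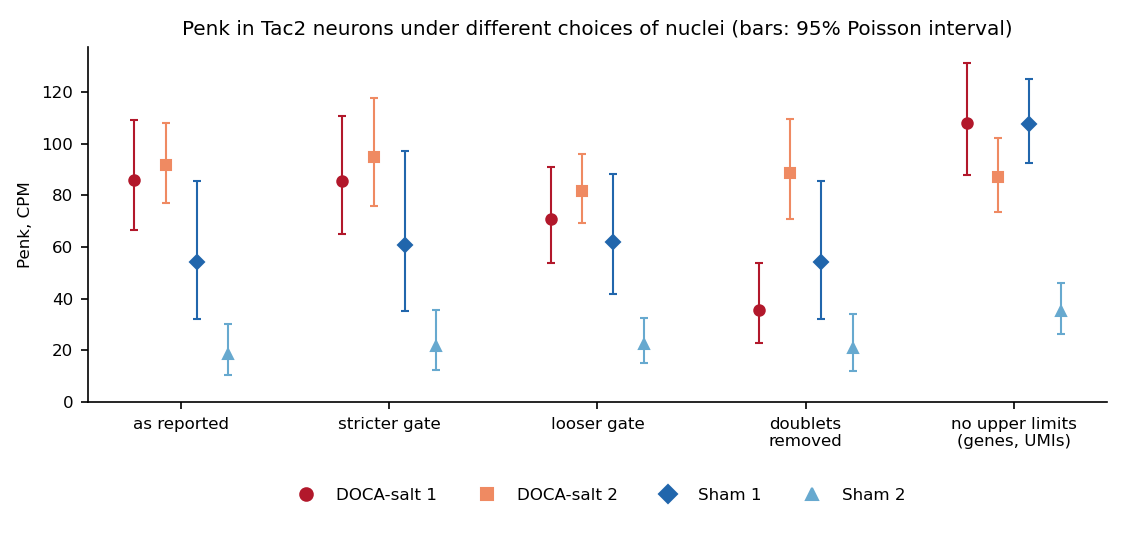
*Penk* in *Tac2* neurons (CPM, linear axis from 0) by library, with 95% Poisson intervals, for the nuclei as reported and under 4 other choices of nuclei. Both DOCA-salt symbols lie above both Sham symbols with the reported nuclei and with the stricter and looser gates, but not with doublets removed (DOCA-salt 1 at 35.8 CPM) or without upper limits (Sham 1 at 108 CPM).

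In *Ghrh* neurons, which make growth hormone-releasing hormone, the order was the opposite. *Penk* stood at 62.7 CPM (38 UMIs in 106 nuclei) and 19.6 CPM (3 UMIs in 29 nuclei) under DOCA-salt, and at 358 CPM (40 UMIs in 9 nuclei) and 213 CPM (104 UMIs in 54 nuclei) in Sham. The intervals of the groups (44.4 to 86.1 and 4.04 to 57.2 against 255 to 487 and 174 to 258) did not touch. *Penk* was found in 24 of 106, 2 of 29, 8 of 9 and 29 of 54 of these nuclei. Their median depth was 4379.5, 4843, 12076 and 7317 UMIs, so these shares were not taken at equal depth. The log2 ratio of the mean CPM + 1 was −2.76, without a fit, because Sham 1 had fewer than the 10 nuclei per library that a fit required. The share of genes with this order was not computed in *Ghrh* neurons. In the classes that were fitted, both DOCA-salt libraries lay below both Sham libraries in 17.0% of gene and class pairs. *Ghrh* neurons were not examined with doublets removed or without upper limits.

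Oxytocin or vasopressin neurons showed the same order as *Ghrh* neurons, on very few counts: 43.4 CPM (1 UMI in 4 nuclei, interval 1.10 to 242) and 67.8 CPM under DOCA-salt, next to 68.9 and 75.8 CPM in Sham, with intervals that all overlapped. In the following classes the groups overlapped. *Pomc* neurons were at 63.1, 90.8, 71.1 and 19.6 CPM (log2 fold change 1.24) and *Sst* (somatostatin) neurons at 104, 84.0, 85.4 and 28.8 CPM (0.91). In both, Sham 2 alone was low, and the fold change was −0.06 in *Pomc* and 0.09 in *Sst* neurons without it. With likely doublets removed, *Sst* neurons stood at 92.1 and 86.7 CPM for DOCA-salt and 40.2 and 28.9 CPM for Sham, and no longer overlapped. This change rested on few nuclei, since Sham 1 went from 32 *Penk* UMIs in 32 nuclei to 14 in 30. The share of genes with this order was not computed for that choice of nuclei. The *Sst* groups still overlapped with the stricter and the looser gate. Without the upper limits on genes and UMIs, *Sst* neurons stood at 116, 77.4, 139 and 25.2 CPM (0.45), with Sham 1 the highest. *Pomc* neurons were then at 76.6, 76.7, 87.3 and 33.4 CPM (0.40), again with Sham 1 the highest. GABAergic neurons outside the peptide classes were at 125, 84.3, 123 and 70.1 CPM (0.06), with the libraries numbered 1 above those numbered 2 in both groups. Without Sham 1 the fold change was 0.55 and without Sham 2 it was −0.33. Glutamatergic neurons outside the peptide classes were at 167, 57.9, 61.6 and 63.2 CPM (0.80), where DOCA-salt 1 alone was high and the fold change without it was −0.14. In these nuclei of DOCA-salt 1, *Rgs9* stood at 117 CPM against 78.1, 79.2 and 75.9 CPM. *Adora2a* and *Ppp1r1b* were at 2.59 and 6.90 CPM there. Each of these genes counts in the striatal gate, which these nuclei did not pass, so the gating itself limits their levels. The source of the *Penk* in these nuclei was not tested. *Agrp* neurons had 46.1 and 56.3 CPM in libraries numbered 1 and 43.5 CPM in Sham 2. Lower levels per nucleus and fewer expressing nuclei cannot be told apart in such sums.

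**Figure D4:**
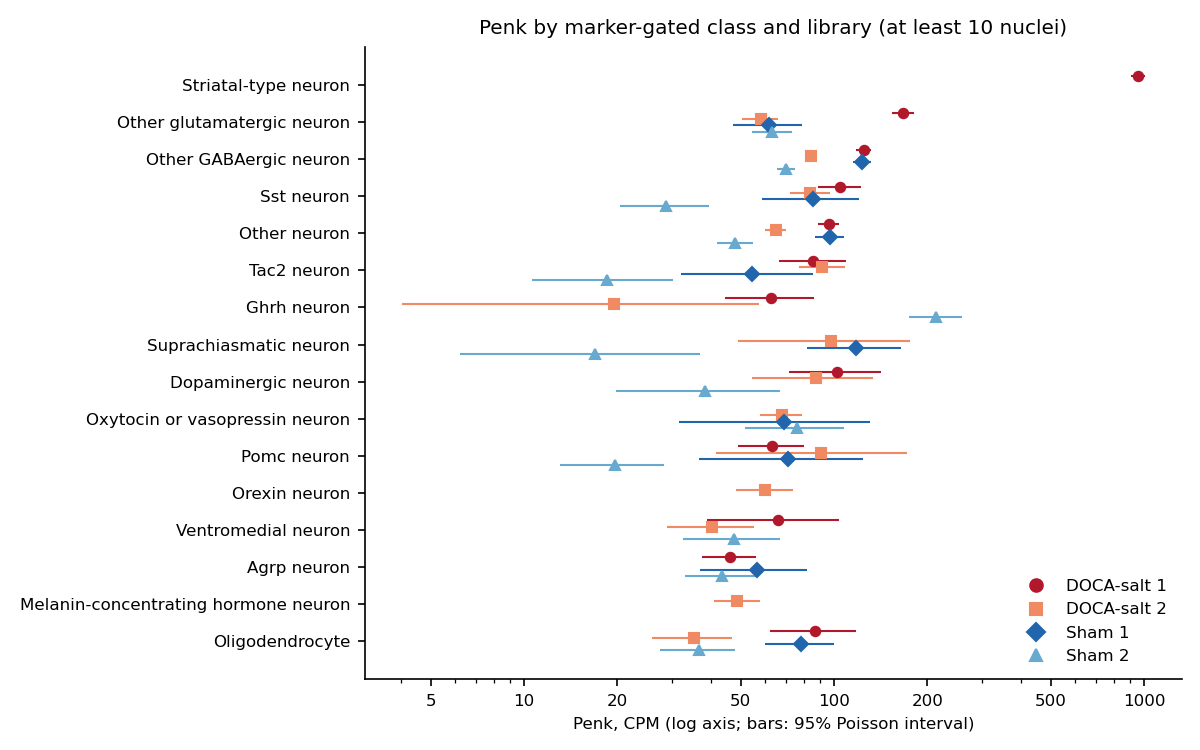
*Penk* level (CPM, log axis) in each neuronal class and in oligodendrocytes, 1 symbol per library with at least 10 nuclei of the class, with 95% Poisson intervals. Striatal-type neurons of DOCA-salt 1 stand alone at 954 CPM, and the oligodendrocyte values of 35.2 to 86.9 CPM are drawn beside the classes.

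Compared with all other neurons of the same libraries, *Penk* was in no class higher and in 4 of 12 lower. This and the following class comparisons used summed counts with library as a block, and 31 pairs of member and class were called in all, where 5.28% of all gene and class pairs were called (2.50% higher and 2.78% lower). *Penk* was lower in *Agrp* neurons (−1.33 ± 0.13, adjusted p = 6.38e-16, lower in 3 of 3 libraries) and in *Pomc* neurons (−1.26 ± 0.14, adjusted p = 3.65e-17, lower in 3 of 4 libraries). It was also lower in ventromedial neurons (−0.78 ± 0.16, adjusted p = 7.53e-05) and in unclassed neurons (−0.43 ± 0.08, adjusted p = 0.00921). Unclassed neurons passed no class gate and had no clear excess of GABAergic or glutamatergic marker UMIs. For *Agrp* neurons the difference was −0.66 without DOCA-salt 1, still past the threshold, and the call was lost by DESeq2 (−1.10). The striatal-type nuclei, which held 32.6% of the neuronal *Penk* UMIs of DOCA-salt 1, are among the other neurons compared here. All 4 calls were lost with no library block. Against oligodendrocytes, *Penk* was higher in 2 of the 12 classes tested, the other GABAergic neurons (0.67 ± 0.12, adjusted p = 0.000143, 4 of 4 libraries) and oxytocin or vasopressin neurons (0.63 ± 0.21, adjusted p = 0.0246, 2 of 3 libraries). It was lower than in oligodendrocytes in *Agrp* (−0.59 ± 0.20, adjusted p = 0.0112, 2 of 3 libraries) and *Pomc* neurons (−0.57 ± 0.23, adjusted p = 0.0479, 3 of 4 libraries), and 8 classes gave no call, where 34.4% of gene and class pairs were called (16.3% higher and 18.1% lower). The call for the other GABAergic neurons was lost under the stricter gate (0.26) and with no library block. That for oxytocin or vasopressin neurons was also lost by DESeq2 and without DOCA-salt 2 or Sham 2 (0.48 and 0.52), that for *Agrp* neurons without DOCA-salt 1 or Sham 1 (−0.28 and −0.55), and that for *Pomc* neurons without DOCA-salt 1, Sham 1 or Sham 2 (−0.58, −0.61 and −0.28). The latter pair was also lost by DESeq2 and with the looser gate, and the *Pomc* call with no filter.

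*Pdyn*, the dynorphin precursor, was higher than in the other neurons in 4 classes and lower in 5. It was at 180, 50.4, 82.9 and 162 CPM in *Pomc* neurons and at 275, 27.0, 120 and 231 CPM in *Tac2* neurons. All neurons stood at 68.2, 49.8, 35.0 and 64.3 CPM. In *Pomc* neurons *Pdyn* was above the other neurons in 4 of 4 libraries, though barely so in the 18 *Pomc* neurons of DOCA-salt 2. The difference was 1.40 ± 0.10 on the log2 scale (adjusted p = 7.21e-39), and this call held under all 9 alternatives run. Removal of doublets was not among them. In *Tac2* neurons *Pdyn* was above the other neurons in 3 of 4 libraries (1.42 ± 0.28, adjusted p = 0.00804). It was below them in DOCA-salt 2, the library whose *Tac2* neurons had little *Tacr3*. The *Tac2* call was lost by DESeq2 (1.37), with the looser gate (1.36), with no library block (1.67) and without Sham 2 (1.14). Without DOCA-salt 2 it was 2.04. *Pdyn* was found in 63.3%, 10.7%, 44.0% and 63.4% of *Tac2* neurons, against 5.96%, 3.09%, 14.9% and 7.74% of oligodendrocytes. The *Tac2* neurons had a median of 3750, 4216, 11919 and 8176 UMIs. *Pdyn* was also higher in ventromedial neurons (0.63 ± 0.14, adjusted p = 0.000401), a call lost by DESeq2 and without DOCA-salt 2 (0.28), and in the other glutamatergic neurons (0.51 ± 0.14, adjusted p = 0.0369), a call lost without any one of DOCA-salt 2, Sham 1 and Sham 2 (0.31 to 0.53), with the looser gate and with no library block.

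*Pdyn* was lower in 5 classes. The other GABAergic neurons, at 45.1, 24.2, 29.8 and 33.7 CPM, were below the remaining neurons in 4 of 4 libraries (−1.17 ± 0.13, adjusted p = 0.000154), and their level did not differ from that of oligodendrocytes past the threshold (−0.12 ± 0.15). Dopaminergic (−1.61 ± 0.29), suprachiasmatic (−1.40 ± 0.35), *Sst* (−0.66 ± 0.11) and *Agrp* neurons (−0.55 ± 0.12) were lower as well. Those 4 calls were each lost by DESeq2 and without 1 library, DOCA-salt 1 for dopaminergic (−1.16), *Sst* (−0.47) and *Agrp* neurons (−0.38), and DOCA-salt 2 or Sham 2 for suprachiasmatic neurons (−1.12 and −1.24). All 5 lower calls, and the higher call in ventromedial neurons, were also lost with no library block. The single library that held orexin neurons, DOCA-salt 2, had *Pdyn* at 297 CPM in its 234 nuclei, 18.0% of all *Pdyn* UMIs in its neurons, and with 1 library this level has no replicate.

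*Pnoc*, the nociceptin precursor, was higher in 2 classes, both of inhibitory neurons, and lower in 5, among them the glutamatergic ones. It was at 81.4, 114, 48.0 and 76.1 CPM in *Sst* neurons, above the other neurons in 4 of 4 libraries (1.03 ± 0.12, adjusted p = 9.28e-07). In the other GABAergic neurons it was at 47.2, 53.1, 57.7 and 82.0 CPM, also above in 4 of 4 (0.82 ± 0.08, adjusted p = 5.85e-05). In the other glutamatergic neurons it was at 13.5, 14.2, 15.6 and 23.6 CPM, below in 4 of 4 (−1.51 ± 0.10, adjusted p = 1.45e-06). Ventromedial neurons, which are glutamatergic, had 7.31, 14.2 and 16.3 CPM in the 3 libraries with at least 10 of them (−1.80 ± 0.25, adjusted p = 8.58e-11). These glutamatergic levels were lower even than in oligodendrocytes, by −1.03 ± 0.19 (adjusted p = 0.000163) and −1.39 ± 0.31 (adjusted p = 0.000596, lost by DESeq2). The 2 lower calls against the other neurons held under every alternative run, and the 2 higher ones were lost only with no library block. *Pnoc* was lower too in oxytocin or vasopressin neurons (−1.12 ± 0.22, adjusted p = 1.38e-05), *Pomc* neurons (−0.62 ± 0.17, adjusted p = 0.00479) and unclassed neurons (−0.90 ± 0.08, adjusted p = 1.11e-05). The first of these calls was lost without DOCA-salt 2 (−0.29) and the second without Sham 2 (−0.24), and both by DESeq2. Both of them and the call of unclassed neurons were also lost with no library block.

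Of the receptors, *Oprk1*, the dynorphin receptor, was higher in 3 classes and lower in 3. It was at 95, 113 and 99.4 CPM in ventromedial neurons of DOCA-salt 1, DOCA-salt 2 and Sham 2, above the other neurons in each (0.79 ± 0.14, adjusted p = 4.80e-07). In *Tac2* neurons it was at 154, 88.4, 105 and 75.5 CPM, above in 4 of 4 libraries (0.74 ± 0.11, adjusted p = 0.000640). Both calls were lost only with no library block. The other glutamatergic neurons were higher by 0.34 ± 0.07 (adjusted p = 0.00917), a call lost without Sham 2 (0.35). *Oprk1* was lower in *Ghrh* (−1.06 ± 0.21, adjusted p = 5.32e-05), *Pomc* (−0.66 ± 0.15, adjusted p = 0.000221) and *Agrp* neurons (−0.55 ± 0.12, adjusted p = 0.000155), of which the *Pomc* call was lost by DESeq2 and without Sham 2 (−0.61). These lower calls and that of the other glutamatergic neurons were also lost with no library block. Its level exceeded that of oligodendrocytes in 9 of 12 classes, where 16.3% of all gene and class pairs were called higher. The 3 without a call were *Agrp*, *Pomc* and *Ghrh* neurons. In oxytocin or vasopressin neurons that call was lost without DOCA-salt 2 (0.17).

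*Oprl1*, the nociceptin receptor, was above the oligodendrocyte level in 12 of 12 classes, by 0.56 to 1.58 on the log2 scale. Of all gene and class pairs 16.3% were called higher than oligodendrocytes. In *Pomc* neurons the difference was 0.62, and 0.28 with the stricter gate. It was higher than in the other neurons in ventromedial neurons, at 110, 129 and 156 CPM in DOCA-salt 1, DOCA-salt 2 and Sham 2 (0.50 ± 0.13, adjusted p = 0.00209), and in the other glutamatergic neurons, at 131, 121, 81.1 and 123 CPM (0.37 ± 0.08, adjusted p = 0.0130). It was lower in *Pomc* neurons (−0.47 ± 0.12, adjusted p = 0.00296) and in oxytocin or vasopressin neurons (−0.52 ± 0.14, adjusted p = 0.00778). These 4 calls of *Oprl1* were each lost with no library block and without Sham 2 (0.29, 0.32, −0.47 and −0.44). The *Pomc* call was lost too without DOCA-salt 1 (−0.48) and that of oxytocin or vasopressin neurons without DOCA-salt 2 (−0.68), and all but that of the other glutamatergic neurons by DESeq2.

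*Oprm1*, the mu receptor, was called in 1 of 12 classes. It was at 8.91, 5.61, 11.6 and 10.0 CPM in the other GABAergic neurons, above the remaining neurons in 4 of 4 libraries (0.64 ± 0.14, adjusted p = 0.0121), and the call was lost without Sham 1 (0.53) and with no library block. All neurons of a library held between 119 and 229 *Oprm1* UMIs. *Oprd1*, the delta receptor, was called by edgeR in none of the 11 classes in which it was tested. No *Oprd1* UMI was found in the 166, 261, 25 and 93 *Tac2* neurons, and a count of 0 allows up to 3 UMIs, or 3.84, 1.98, 9.03 and 3.48 CPM, which is above the *Oprd1* level of all neurons in each library (1.88, 0.687, 1.07 and 1.91 CPM). An absence from *Tac2* neurons was therefore not detectable in any single library. Over the 4 libraries together, edgeR gave −7.31 ± 2.82 on the log2 scale, lower in 4 of 4 (unadjusted p = 0.0184, adjusted p = 0.337), which was not a call.

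**Figure D5:**
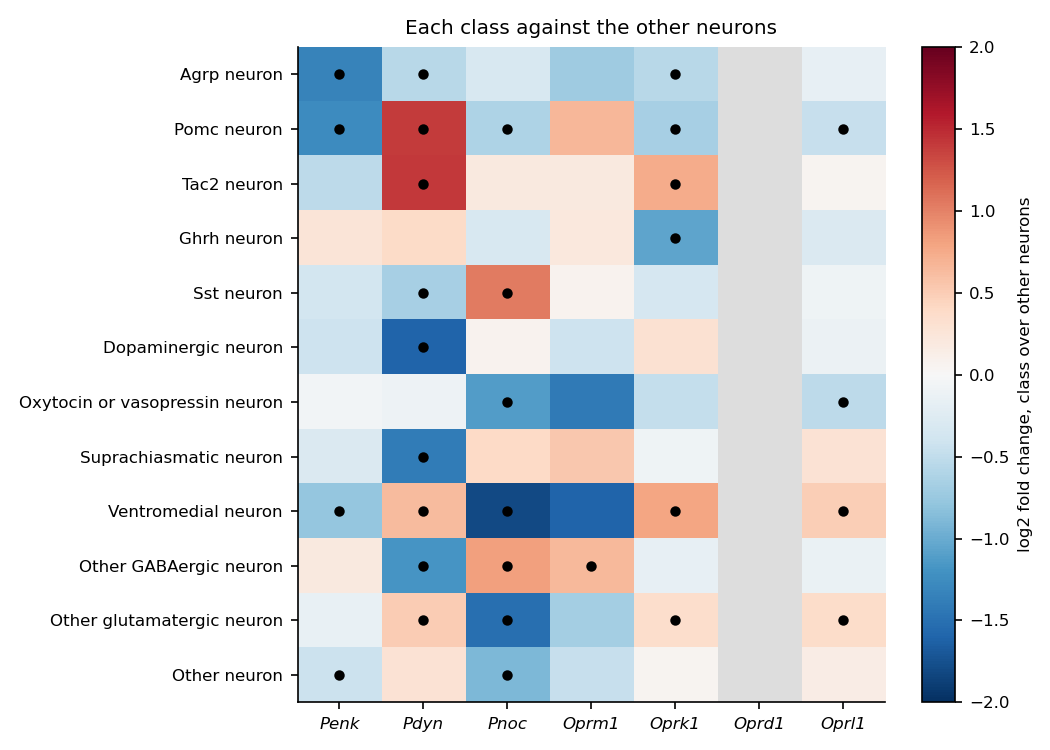
Log2 fold change of each opioid gene in a neuronal class over all other neurons (rows: 12 classes, columns: 7 genes, colour from −2 to 2), with a dot where the adjusted p of edgeR was under 0.05. *Pdyn* is high in *Pomc* and *Tac2* neurons (1.40 and 1.42), *Pnoc* is high in *Sst* and other GABAergic neurons (1.03 and 0.82) and low in ventromedial and other glutamatergic ones (−1.80 and −1.51), and the *Oprd1* column is grey because its counts are too few to colour.

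UMIs of a precursor and of its receptor were found together in some neurons. Both *Pdyn* and *Oprk1* had a UMI in 46 of 166, 13 of 261, 5 of 25 and 28 of 93 *Tac2* neurons, and in 381 of 6670, 518 of 12423, 132 of 1377 and 330 of 4420 of all neurons. Among neurons with *Pdyn*, 32.7%, 35.8%, 43.4% and 36.7% also had *Oprk1*, against 19.4%, 15.8%, 30.8% and 19.7% of those without. Within *Tac2* neurons these shares were 43.8%, 46.4%, 45.5% and 47.5% with *Pdyn* and 42.6%, 36.5%, 78.6% and 38.2% without. The gap was thus smaller than over all neurons in both DOCA-salt libraries and Sham 2. It turned in Sham 1, where 11 of only 25 *Tac2* neurons had *Pdyn*. Both *Pnoc* and *Oprl1* were found in 280, 645, 205 and 458 neurons, and *Oprl1* was in 40.6%, 42.7%, 55.0% and 48.3% of neurons with *Pnoc* against 27.3%, 28.4%, 47.2% and 32.1% of those without. *Penk* was found with *Oprm1* in 64, 50, 51 and 44 neurons and with *Oprd1* in 20, 8, 6 and 7. *Oprd1* was in 1.39%, 0.434%, 1.02% and 1.02% of neurons with *Penk* and in 0.611%, 0.255%, 1.14% and 1.10% of those without, so that the order turned in both Sham libraries. In oligodendrocytes *Pdyn* and *Oprk1* were found together in 1.28%, 0.110%, 3.51% and 1.16% of nuclei, against 5.71%, 4.17%, 9.59% and 7.47% of neurons. *Oprk1* was there too more frequent with *Pdyn* (21.4%, 3.57%, 23.5% and 15%) than without (3.62%, 2.05%, 11.3% and 6.71%), on 1 to 6 nuclei with both. Nuclei with more UMIs have more of every gene, and the part of depth and of free RNA in these shares was not tested.

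None of the 6 members that can be tested differed between DOCA-salt and Sham in neurons by edgeR (0 of 15813 genes called, 0%, with 1199 genes and 0 members at an unadjusted p under 0.05). DESeq2 called 78 genes and 0 members. *Oprm1* was at 7.23, 4.5, 8.49 and 8.68 CPM, with both DOCA-salt libraries below both Sham libraries as for 16.9% of genes (−0.60 ± 0.29, adjusted p = 0.657). *Oprk1* was at 75.3, 59.9, 55.2 and 57.6 CPM (0.22 ± 0.15, adjusted p = 0.722) and *Oprl1* at 95.7, 103, 79.9 and 91.8 CPM (0.18 ± 0.16, adjusted p = 0.766). In both the DOCA-salt libraries were above the Sham libraries, as for 25.6% of genes. *Pnoc* was at 33.7, 45.4, 43.5 and 57.9 CPM (−0.38 ± 0.23, adjusted p = 0.697), *Pdyn* at 68.2, 49.8, 35.0 and 64.3 CPM (0.21 ± 0.29, adjusted p = 0.851) and *Oprd1* at 1.88, 0.687, 1.07 and 1.91 CPM (−0.32 ± 0.58, adjusted p = 0.894), all with groups that overlapped. Over all nuclei the 6 members gave no call either (lowest adjusted p = 0.635, 1399 of 16564 genes at an unadjusted p under 0.05, and no member by DESeq2).

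Within 8 classes with at least 10 nuclei in every library, 38 tests of these members gave 0 calls by edgeR, 2 at an unadjusted p under 0.05 and 0 calls by DESeq2, where 0.0265% of gene and class pairs were called. Both DOCA-salt libraries were above both Sham libraries in 23.1% of such pairs and below them in 17.0%, as *Pnoc* and *Oprl1* were in several classes. In *Sst* neurons the *Pnoc* level was 81.4 and 114 CPM in the DOCA-salt libraries, above the 48.0 and 76.1 CPM of Sham. In the other GABAergic neurons it stood at 47.2 and 53.1 against 57.7 and 82.0 CPM. The test of the difference between these classes, chosen after the values were seen, gave 1.13 ± 0.19 on the log2 scale (edgeR adjusted p = 0.0126), where 0.0366% of 13677 genes were called. That call was lost by DESeq2 (1.13) and without DOCA-salt 2 (0.95) or Sham 2 (1.28). The 2 of 38 at an unadjusted p under 0.05 were *Pnoc* in the other GABAergic neurons (−0.51 ± 0.21, unadjusted p = 0.0450, adjusted p = 0.664) and *Pnoc* in astrocytes (−0.83 ± 0.34, unadjusted p = 0.0249, adjusted p = 0.340). Over the 8 classes the share of all genes at such a p ran from 417 of 9794 in *Tac2* neurons to 1170 of 10045 in astrocytes. When 1 library was left out, edgeR called 4 members, each in 1 class. Without DOCA-salt 1, *Pdyn* was lower in *Tac2* neurons (−2.81, adjusted p = 3.57e-18) and *Oprm1* lower in the other glutamatergic neurons (−2.62, adjusted p = 0.0242). Without DOCA-salt 2, *Pnoc* was lower in *Tac2* neurons (−1.44, adjusted p = 0.0383) and *Oprk1* higher in astrocytes (1.48, adjusted p = 0.00435). Each of these compares 1 DOCA-salt library with 2 Sham libraries and takes the lone library to vary like the others.

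The other genes of the pathway were taken from a list of 42 gene symbols. They cover precursor processing, peptide breakdown, G proteins, channels, receptor kinases and arrestins, RGS proteins, adenylyl cyclases and 3 others (*Ogfr*, *Ogfrl1* and *Pomc*). Of the symbols, 40 were found in the count tables and 39 were tested in neurons. By edgeR, 0 were called higher and 0 lower under DOCA-salt (0% of all genes), and DESeq2 called 0. At an unadjusted p under 0.05 were 2 of the 39, next to 1199 of all 15813 genes tested. The median log2 fold change was −0.03, against 0.03 over all genes tested, with 17 genes positive and 22 negative. The 3 of smallest p were *Rgs17*, *Kcnj6* and *Gnai2*. *Rgs17*, which ends signalling by inhibitory G proteins, was at 163, 156, 205 and 214 CPM (−0.43 ± 0.16, adjusted p = 0.65). *Kcnj6*, a subunit of the potassium channel opened by opioid receptors, was at 22.7, 9.07, 30.6 and 29.99 CPM (−0.99 ± 0.38, adjusted p = 0.65). *Gnai2*, an inhibitory G protein subunit, was at 273, 215, 300 and 323 CPM (−0.39 ± 0.19, adjusted p = 0.655). For all 3, picked by their p, both DOCA-salt libraries lay below both Sham libraries, as for 16.9% of genes. When 1 library was left out edgeR called 4 pathway genes without DOCA-salt 1 (*Pcsk1n* 0.67, *Cacna1a* −0.80, *Pomc* −2.65 and *Kcnj6* −1.73) and 1 without DOCA-salt 2 (*Rgs9* 1.14, also a striatal marker).

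By role, none of the groups held a called gene. The median log2 fold change was −0.21 over 6 channel genes, −0.25 over 5 G protein genes and 0.08 over 4 adenylyl cyclases, and of all genes tested 7383 were negative and 8430 positive. The 6 processing genes, among them the convertases *Pcsk1* and *Pcsk2* that cut the precursors, had a median of 0.02 and the 5 peptidases tested a median of 0.01.

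The genes whose level over 17 neuronal classes (mean log2(CPM + 1) of the libraries) was most like that of a member were picked among 13082 genes by Pearson correlation, as a description. For *Penk* they were *Gas7* (r = 0.94), *Pde1b* (0.92) and *St8sia3* (0.92), and the striatal-type neurons, with 1 library of 228 nuclei, were the highest point of the *Penk* profile. For *Pdyn* they were *Terb1* (0.81), *Gm48933* (0.80) and *Mecr* (0.76), for *Pnoc* *Cachd1* (0.94), *G3bp1* (0.93) and *Cd38* (0.93), and for *Oprm1* *Csrnp1* (0.91), *Gm10827* (0.90) and *Pigu* (0.88). For *Oprk1* they were *Xab2* (0.83), *A330102I10Rik* (0.83) and *Pwwp2b* (0.81), and for *Oprl1* they included *Lnx1* (0.95) and *Usp22* (0.94). *Oprd1*, with too few UMIs to rank classes, is left out. The classes share libraries, depth and free RNA, and small classes have few UMIs.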

How the data were processed

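Raw 3′ counts were used as deposited. Per the labels and the study's methods, the authors made whole UMI counts per gene and barcode from 10x Genomics v3 libraries with Cell Ranger 3.0.1 (the version in the submitters' processing notes) on mm10. Whether intronic reads were counted is not stated outright in the sources used here. The study's supplement lists reads in introns apart from those mapped to the transcriptome. In each library the transcriptome share lay below the exonic share. Nuclei with over 200 and under 7000 genes, under 25000 UMIs and under 15% mitochondrial UMIs were kept, as in the study.

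Nuclei were gated by marker lists. A nucleus was neuronal if at least 3 of 8 neuronal markers were found at 0.65 times the library mean or more and no glial list passed. A glial list, or the markers of a neuronal class, passed at a Poisson p below 1e-04 (against the library mean, or against oligodendrocytes for classes) with 2 or 3 UMIs or markers at least. Nuclei that passed both a glial and the neuronal rule, or neither, entered no class. Counts were summed per library and class. edgeR 4.0.16 (TMM, filterByExpr, quasi-likelihood F-test, Benjamini-Hochberg over all genes of a fit, threshold 0.05) compared treatments, and classes within libraries with library as a block. A class was fitted with at least 10 nuclei per library, in all 4 libraries for treatments and in at least 3 for classes. SE were taken from the p-value. *Penk* got no p and no SE between treatments, since it was chosen for that contrast. Alternatives were DESeq2 1.42.0, RLE factors, no filter, blocks, other gates, no upper limits, removal of doublets (Scrublet in scanpy 1.11.5 under Python 3.11.15, the highest scores at 0.8% per 1000 nuclei, 39 to 2860 nuclei, since its own threshold marked at most 4) and leaving out each library. Doublets otherwise stayed in. RLE factors, no upper limits and removal of doublets were run between treatments only. Comparisons of classes, with other neurons or with oligodendrocytes, were not run under them. Fits were tested on simulated data under R 4.3.3.

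Genes named are the 7 members, the 3 pathway genes of smallest p, gate markers and the 3 genes of most similar class profile per member except *Oprd1*. Of the latter, 1 gene for *Oprl1* is not reported here. The members and lists were chosen with earlier results of these data known. Libraries numbered alike were not paired: their deviations correlated at −0.27 in neurons, and nothing says that a number marks a shared batch. The labels give separate samples, and with 2 pools per group the p-values between treatments rest on the spread between pools. In class comparisons the library block takes the spread in level between libraries out of the error. Their p-values and SE therefore do not measure that spread. In both kinds of fit the variance estimate of a gene borrows from the other genes. No protein or promoter sequence was used.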

Additional observations from a re-analysis of the deposited data

Results flagged for a closer look

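*Penk* in the nuclei that passed neither a neuronal nor a glial gate, which enter no comparison of classes, stood at 425 CPM in DOCA-salt 1, above the 55.5 and 96.7 CPM of the Sham libraries and above the 58.0 CPM of DOCA-salt 2. The same nuclei carried the summed striatal markers at 2830 CPM against 307 to 468 CPM elsewhere.

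*Penk* ran in opposite directions in 2 peptide classes. Both DOCA-salt libraries were above both Sham libraries in *Tac2* neurons (log2 fold change 1.44) and below them in *Ghrh* neurons (log2 ratio of mean CPM + 1 of −2.76). In *Tac2* neurons 20.1% of genes had this order, and it was lost with doublets removed (DOCA-salt 1 at 35.8 and Sham 1 at 54.2 CPM) and without upper limits (Sham 1 at 108 and DOCA-salt 2 at 87.1 CPM, log2 fold change 0.39). The difference between the classes was not tested, and the DOCA-salt 2 library gave 3 *Penk* UMIs in *Ghrh* neurons. For *Ghrh* neurons neither the share of genes with their order nor these other choices of nuclei were examined.

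*Pnoc* was higher in both DOCA-salt libraries than in both Sham libraries in *Sst* neurons (0.55) and lower in both in *Pomc* neurons (−0.28), the other GABAergic neurons (−0.51), the other glutamatergic neurons (−0.60) and astrocytes (−0.83). The difference between *Sst* and the other GABAergic neurons was tested after the values were seen, as an interaction of class and treatment with library as a block. It was 1.13 ± 0.19 on the log2 scale (edgeR adjusted p = 0.0126, 5 of 13677 genes called, 0.0366%). It passed with no filter (1.12), without DOCA-salt 1 (1.26) and without Sham 1 (1.08), and did not pass by DESeq2 (1.13), without DOCA-salt 2 (0.95) or without Sham 2 (1.28). The other differences of *Pnoc* between classes were not tested.

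*Oprl1* was higher in both DOCA-salt libraries in *Pomc* neurons (0.14), *Tac2* neurons (0.27), the other GABAergic neurons (0.21), unclassed neurons (0.21) and oligodendrocytes (0.21), and lower in both in astrocytes (−0.23). These differences between classes were not tested, both DOCA-salt libraries were above both Sham libraries in 23.1% of all gene and class pairs and below in 17.0%, and none of the single values passed the threshold within its class by edgeR or DESeq2.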

How the results depend on the processing

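The treatment comparison depends most on which pools enter it. In neurons edgeR called 0 genes, against 78 by DESeq2, 296 with no filter, 12 with the replicate block and 4 to 699 with 1 library left out. No member was called with the replicate block, and it changed no other call of the members. Pools numbered alike deviated in opposite directions (correlation −0.27), and the crossed pairing, added after seeing the data, gave 0 genes. Leaving out 1 library gave 0 to 2 calls among the members, and 0 to 4 among the pathway genes, where no filter gave 1 (*Kcnj6*). With 1 library left out the fold change in neurons ran from −0.14 to 0.68 for *Pdyn*, negative without Sham 1, and from −1.15 to 0.21 for *Oprd1*, positive without DOCA-salt 2 or Sham 2 (0.16). The cause was not tested. Class comparisons gave 31 calls, 18 by DESeq2, 3 with no library block, which leaves the spread between libraries in the error, and 23 to 27 with 1 library left out. The 3 were *Pdyn* in *Pomc* neurons and *Pnoc* in ventromedial and the other glutamatergic neurons. Those against oligodendrocytes gave 45, 29 by DESeq2 and 31 to 39 with 1 library left out. At 500 UMIs *Penk* was found in 4.95%, 3.40%, 5.30% and 2.53% of neurons, since fewer UMIs are kept. Suprachiasmatic and ventromedial neurons could not be fitted with the stricter gate, nor treatments in *Pomc* neurons with doublets removed. Depth limits *Oprd1* and *Oprm1* in all small classes.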

Other observations

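*Oprl1*, the nociceptin receptor, was higher in oligodendrocyte precursors, the dividing glia that give rise to oligodendrocytes, than in mature oligodendrocytes. It was at 71.6, 126, 51.3 and 113 CPM (16, 41, 10 and 20 UMIs) in the 138, 210, 26 and 72 precursor nuclei, and at 40.2, 43.6, 34.5 and 36.0 CPM in oligodendrocytes. The precursor value was the higher one in 4 of 4 libraries. The difference was 1.12 ± 0.22 on the log2 scale (edgeR, library as a block, adjusted p = 6.82e-05), where 10.9% of 8758 genes were called higher in precursors. It ranged from 0.62 with the stricter gate to 1.5 with the looser gate and passed under all 9 alternatives run, which did not include removal of doublets. *Penk*, *Pdyn*, *Pnoc* and *Oprk1* gave no call in this comparison (adjusted p between 0.237 and 0.685), and *Oprm1* and *Oprd1* had 0 UMIs in precursors, too few to test. The comparison was chosen after the data were seen.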
